A study of Rattus norvegicus with 29 samples.

Results

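The TNF superfamily was followed across 29 duodenal arrays as 29 genes, 14 ligands and 15 receptors, of the 14557 named genes measured. A gene belonged to the set if its platform symbol began with Tnfsf or Tnfrsf and a number, or was Tnf, Lta, Ltb, Cd40, Cd40lg, Fas, Faslg or Ltbr. Each gene was read from 1 probe set, the one with the highest mean over all 29 arrays, and only Tnfsf13b had another. Fas, Tnfrsf9, Tnfrsf10b, Tnfrsf13b, Tnfrsf19, Tnfrsf22, Tnfrsf25, Tnfsf8 and Tnfsf9 were not analysed here.

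The tissue came from male wild-type Long-Evans rats of 8 to 10 weeks, with 1 array per animal. Groups were Roux-en-Y gastric bypass (RYGB, 6 arrays), the sham operation for it (5 arrays), vertical sleeve gastrectomy (VSG, 6 arrays), the VSG sham with paired feeding (6 arrays, called pair-fed sham) and the VSG sham without it (6 arrays, called VSG sham), whose feeding the labels do not describe. Every animal received a liquid diet on the day before the operation and a midline incision, and VSG removed approximately 80% of the stomach, while its sham applied blunt pressure only. The bypass operation is not described in the labels, no pair-fed sham accompanied it, and no time from surgery to sampling is stated in the labels.

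Ligands of this superfamily are mostly membrane-anchored trimers that bind receptors with cysteine-rich outer domains. Receptors with a death domain, such as the TNF receptor 1, recruit adaptors that lead either to caspase-8 and cell death or to NF-kB. Many of the others signal through TRAF proteins. In the gut the family is known for epithelial cell shedding, for organising lymphoid tissue and for keeping plasma cells alive.

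All 9 measured enterocyte markers (Alpi, Fabp1, Fabp2, Lct and others) lay above background, and their mean per array ran from 10.47 to 10.94 on the log2 scale. The segment of the intestine rests on the label alone. Pancreatic acinar transcripts varied widely between arrays (the pancreas lies against the duodenum). The mean of 12 acinar genes lay between 3.03 and 9.31 in RYGB, between 2.76 and 6.03 in RYGB sham, between 5.08 and 8.75 in VSG, between 2.62 and 9.58 in pair-fed sham, and between 2.80 and 8.59 in VSG sham. None of the 29 members followed this mean within groups after adjustment over all genes. Only 36 of all 14557 genes did, the 12 acinar genes being among those tested, so 0 of 29 says little about the members. In whole tissue, fewer cells of a type and less RNA per cell cannot be told apart.

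Of the 29 members 22 were above background, 9 ligands and 13 receptors. Background was taken as 2.53, the 95th percentile of the mean log2 values of 209 olfactory and vomeronasal receptor genes, and 66.4% of all genes exceeded it. Lta (2.53) and Cd40 (2.58) lay just above this level, Tnfsf4 and Tnfrsf18 (both 2.44) just below. The 5 ligands that did not pass were Tnfsf4 (OX40 ligand), Tnfsf11 (RANKL), Tnfsf14 (LIGHT), Cd40lg and Tnfsf18 (GITR ligand), several of them known from activated lymphocytes. The 2 receptors were Tnfrsf8 (CD30) and Tnfrsf18 (GITR). Levels of different probe sets cannot be set against each other, so each gene is compared below only with itself.

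**Figure D1:**
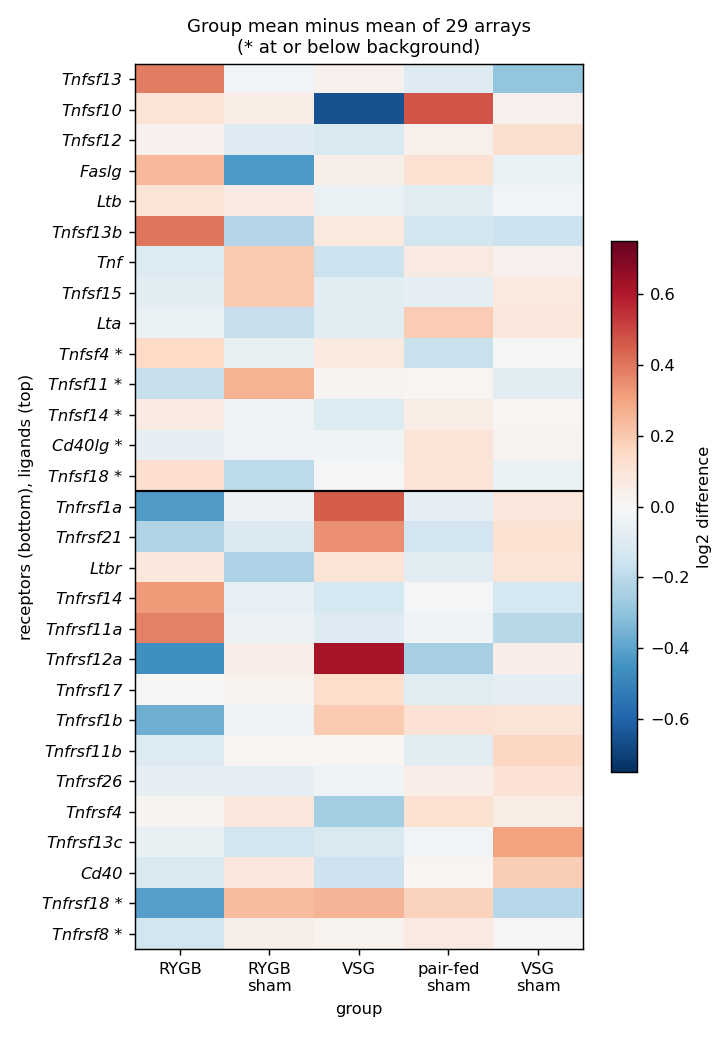
Mean log2 value of each of the 29 members in each group, minus its mean over the 29 arrays, with ligands above the line and receptors below it. Asterisks mark the 7 members not above background. Tnfsf10 is low in VSG and high in pair-fed sham, Tnfrsf12a and Tnfrsf1a are high in VSG and low in RYGB, and Faslg is low in RYGB sham.

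After VSG, compared with pair-fed sham, Tnfsf10 fell while Tnfrsf12a and Tnfrsf1a rose. This comparison sets the sleeve operation beside a sham with paired feeding. Calls rest on a limma fit over all genes and a Benjamini-Hochberg adjusted p under 0.05. By this rule 3 of 29 members were called, 2 higher and 1 lower, where 0.508% of all genes were called, 0.261% higher and 0.247% lower. Tnfsf10 and Tnfrsf12a were named with the set, which was chosen with earlier results of these data known. The shares are therefore no test of the family. The median log2 difference was -0.04 over the members and -0.02 over all genes.

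Tnfsf10 (probe set 17737479) encodes TRAIL, a ligand that can trigger apoptosis through death receptors. It read 4.32, 5.08, 4.05, 5.43, 4.88 and 3.61 on the log2 scale in the VSG arrays, against 5.33, 5.67, 6.04, 6.00, 5.40 and 5.69 in the pair-fed sham arrays. Only VSG replicate 4 reached the pair-fed range, and the VSG arrays were the more scattered, with an SD of 0.68 against 0.29. The difference was -1.13 ± 0.24 (SE), a 2.18-fold lower level (limma adjusted p = 0.0228, n = 6 each), with a 95% interval from -1.62 to -0.63. VSG replicate 4 was also the VSG array with the lowest acinar mean (5.08, others 6.97 to 8.75). Among the pair-fed sham arrays, replicates 1 and 6 had the highest acinar means (9.34 and 9.58), with Tnfsf10 at 5.33 and 5.69. Within groups Tnfsf10 had a slope of -0.02 ± 0.04 (SE) per log2 unit of the acinar mean. With the acinar mean as a covariate the Tnfsf10 difference was -1.09 (adjusted p = 0.0487). Without the arrays of any group high in pancreas transcripts, 5 of 6 VSG and 2 of 6 pair-fed sham arrays among them, it was -0.35, with 1 VSG array left (adjusted p = 1). That lone array was assumed to vary like the other groups.

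Tnfrsf12a (probe set 17654148) encodes Fn14, the receptor of the ligand TWEAK, known for its rise in injured and regenerating tissue. The VSG arrays read 6.32, 6.27, 6.29, 6.05, 6.04 and 6.45, against 5.97, 5.43, 5.15, 5.19, 5.68 and 4.81 in pair-fed sham. All VSG arrays lay above all pair-fed arrays and were closely grouped (SD 0.16, against 0.41). Tnfrsf12a rose by 0.86 ± 0.20 (1.82-fold, adjusted p = 0.0432, n = 6 each).

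Tnfrsf1a (probe set 17787389) encodes TNF receptor 1, the widely expressed death-domain receptor of TNF. Its values were 8.76, 8.84, 9.19, 8.999, 8.84 and 9.08 in VSG, against 8.66, 8.18, 8.50, 8.35, 8.60 and 8.26 in pair-fed sham. Here too every VSG array exceeded every pair-fed array, and the rise was 0.53 ± 0.13 (1.44-fold, adjusted p = 0.0494). Tnfrsf21, the death receptor 6, was the third member without overlap, at 6.93 to 7.35 in VSG and 6.52 to 6.78 in pair-fed sham, and its difference of 0.49 ± 0.15 did not pass (adjusted p = 0.154). Groups did not overlap for 3 of 29 members, where 1.14% of all genes showed this. Tnfrsf12a, named with the set, was among them, so this share is no test of the family either.

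These calls lay close to the threshold and several ended when 1 array was left out. Tnfsf10 was not called without VSG replicate 1, 3 or 6 or pair-fed replicate 3, 4 or 6 (-0.94 to -1.13, adjusted p from 0.0518 to 0.084). Tnfrsf12a was not called without VSG replicate 1, 2, 3 or 6 or pair-fed replicate 2, 3, 4 or 6 (0.75 to 0.87, adjusted p from 0.0713 to 0.109), and without pair-fed replicate 1 alone did Tnfrsf1a keep its call (adjusted p = 0.0445). Each of the other 11 arrays, left out, ended the Tnfrsf1a call (0.48 to 0.57, adjusted p from 0.0546 to 0.139). Fitting these groups alone ended the calls of Tnfsf10, Tnfrsf12a and Tnfrsf1a at the same differences (adjusted p = 0.122, 0.0552 and 0.0845). Testing all 36685 rows did so too (adjusted p = 0.065, 0.0919 and 0.101). The acinar covariate ended those of Tnfrsf12a (0.85, adjusted p = 0.0754) and Tnfrsf1a (0.52, adjusted p = 0.0899). Centring the arrays ended that of Tnfrsf1a (0.54, adjusted p = 0.0642). Dropping the high-pancreas arrays left Tnfrsf12a at 0.69 and Tnfrsf1a at 0.59 (both adjusted p = 1, 1 VSG array).

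**Figure D2:**
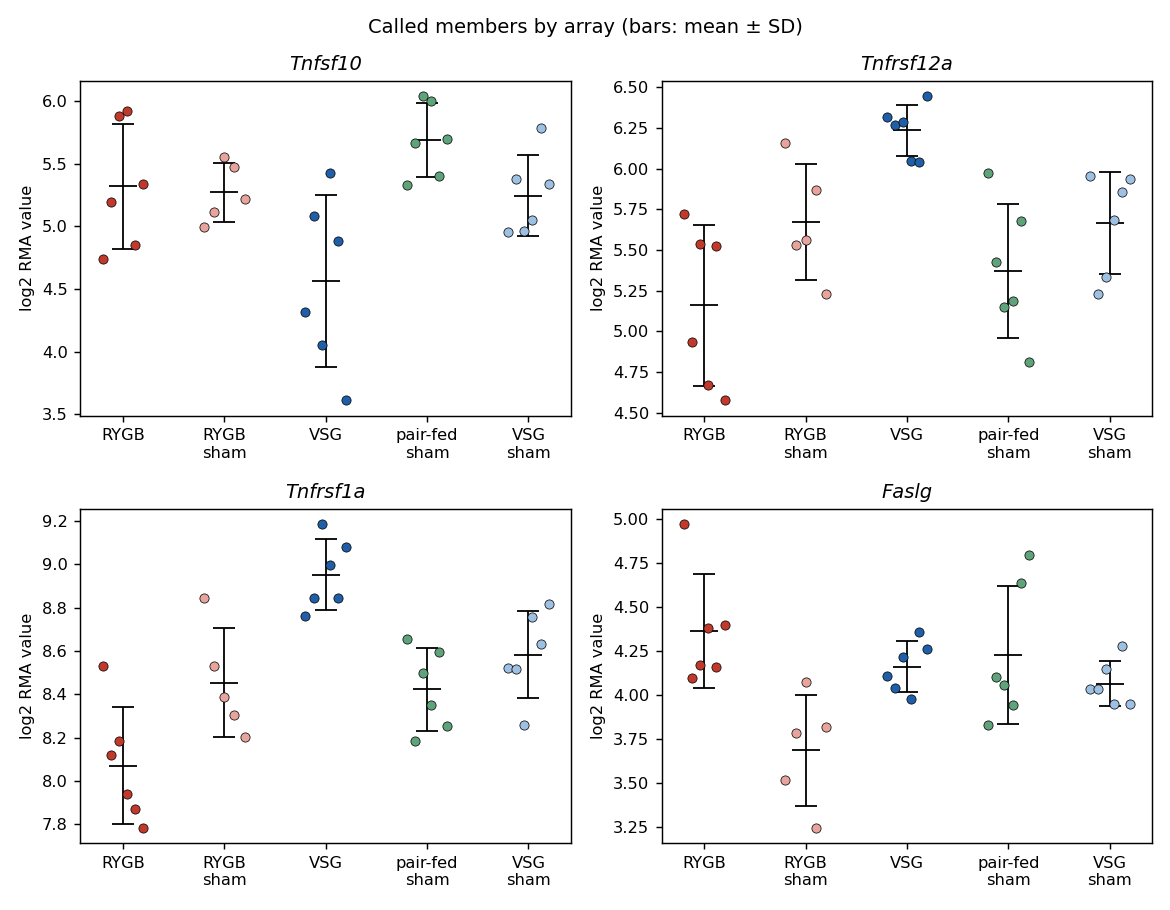
Log2 RMA values of the 4 called members, 1 point per array, with the mean and SD of each group. Tnfsf10 is lowest in VSG, Tnfrsf12a and Tnfrsf1a are highest there and above every pair-fed array, and Faslg is higher in every RYGB array than in any RYGB sham array.

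The promoters of the 4 called members are shown as the sequence at the start listed for each of these genes. They come from RefSeq (GRCr8), with 250 bases before and 50 bases after the start that the table gives, written 5′ to 3′ along the gene, and 21 of the 29 members matched this table. Capitals mark matches on either strand to the TATA box (TATAAA), GC box (GGGCGG), AP-1 (TGANTCA), NF-kB (GGG and CC with any 5 bases between), interferon-stimulated response element (GAAA and GAAA with any 2 bases between), STAT (TTCNNNGAA) or NFAT (TGGAAA) letters.
Tnfsf10 promoter, chr2:112136689-112136988, plus strand: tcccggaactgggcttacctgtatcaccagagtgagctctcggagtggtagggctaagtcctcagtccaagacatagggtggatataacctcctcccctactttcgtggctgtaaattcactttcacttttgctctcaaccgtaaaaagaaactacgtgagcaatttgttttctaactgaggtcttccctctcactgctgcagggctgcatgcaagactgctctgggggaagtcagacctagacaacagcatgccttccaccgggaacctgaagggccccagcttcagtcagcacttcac
Tnfrsf12a promoter, chr10:13213599-13213898, minus strand: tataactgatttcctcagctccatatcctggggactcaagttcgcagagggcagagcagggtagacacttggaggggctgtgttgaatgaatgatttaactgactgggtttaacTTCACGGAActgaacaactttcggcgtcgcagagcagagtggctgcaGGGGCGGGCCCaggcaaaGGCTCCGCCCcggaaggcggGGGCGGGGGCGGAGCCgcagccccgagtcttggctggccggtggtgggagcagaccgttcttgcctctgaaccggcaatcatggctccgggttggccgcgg
Tnfrsf1a promoter, chr4:159836869-159837168, plus strand: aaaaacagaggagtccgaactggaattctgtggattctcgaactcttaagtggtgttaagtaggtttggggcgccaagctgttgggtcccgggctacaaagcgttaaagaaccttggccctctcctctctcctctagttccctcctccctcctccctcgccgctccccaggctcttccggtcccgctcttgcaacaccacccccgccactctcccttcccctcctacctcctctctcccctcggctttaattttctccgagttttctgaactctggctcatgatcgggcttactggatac
Faslg promoter, chr13:76695454-76695753, minus strand: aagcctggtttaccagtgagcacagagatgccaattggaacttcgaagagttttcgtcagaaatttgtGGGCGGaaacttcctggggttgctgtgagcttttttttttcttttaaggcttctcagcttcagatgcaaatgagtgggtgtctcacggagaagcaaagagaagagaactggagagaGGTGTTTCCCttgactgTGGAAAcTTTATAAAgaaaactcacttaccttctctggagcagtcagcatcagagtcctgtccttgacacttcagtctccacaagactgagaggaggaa

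For Faslg, Tnfsf10 and Tnfrsf12a the start in the table lies inside the extent of the gene's annotation, so a window may belong to another transcript than the one the probe set measured. Positions below are those of a match's first base relative to that start. In the Tnfrsf12a window 4 GC boxes began between -88 and -45, and each of its 4 NF-kB matches overlapped a GC box. Its STAT match, TTCACGGAA, began at -136. GC boxes were in 33.1% of the 33469 promoters in the table and in 13 of 21 member promoters, NF-kB letters in 47.3% and in 12 of 21. The Faslg window held a TATA match at -40 and another on the opposite strand overlapping it, an NFAT match at -49, an NF-kB match at -66 and a GC box at -182. TATA letters were in 14.2% of promoters (7 of 21 members) and NFAT letters in 22.7% (6 of 21). None of the 7 motifs was in the Tnfsf10 or Tnfrsf1a window. STAT letters were in 8.87% of all promoters, AP-1 in 7.33% and the interferon element in 3.92%, so most windows lack each of these. A match is a run of letters and not a measured binding site.

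RYGB was compared with its sham next, and here Faslg was the member that rose. Faslg (probe set 17685897) encodes the Fas ligand, by which cytotoxic lymphocytes kill target cells. It read 4.97, 4.10, 4.17, 4.38, 4.16 and 4.40 in the RYGB arrays, against 3.51, 3.78, 4.07, 3.24 and 3.82 in RYGB sham. Every RYGB array was above every sham array, by a narrow margin between RYGB replicate 2 (4.10) and sham replicate 3 (4.07). The rise was 0.68 ± 0.16 (1.60-fold, limma adjusted p = 0.0185, n = 6 and 5). It made 1 of 29 members called, where 2.64% of all genes were called (1.26% higher, 1.38% lower), and 1 of 29 without overlap, where 2.78% of all genes had none, so both shares were near the background. The Faslg level of RYGB sham (mean 3.68) was also below that of the other groups, whose means were 4.16 in VSG, 4.23 in pair-fed sham and 4.06 in VSG sham.

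Faslg was not called without RYGB replicate 1 (0.55, adjusted p = 0.0619) nor without the first RYGB sham array (0.63, adjusted p = 0.0586) or sham replicate 4 (0.57, adjusted p = 0.0768). The call also ended when RYGB and its sham were fitted alone (adjusted p = 0.0894), with the acinar covariate (0.64, adjusted p = 0.101), or when all arrays above the acinar midpoint, 4 of 6 RYGB arrays among them, were dropped (0.44, adjusted p = 0.586). The mean of 17 T and natural killer cell markers, 14 of them above background and Cd2, Gzmk and Klrb1a below it, ran from 4.35 to 4.48 in RYGB and from 4.17 to 4.43 in RYGB sham. None of the 17 was called, 12 were above 0, and their median difference was 0.16. Their part in the Faslg result was not tested.

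At an unadjusted p under 0.05 there were 11 of 29 members, 6 higher and 5 lower, that is 37.9%, and 14.1% of all genes. None of the 10 other than Faslg passed the adjustment. The 6 on the higher side were Faslg, Tnfsf13, Tnfsf13b, Ltbr, Tnfrsf14 and Tnfrsf11a, and the 5 on the lower side Tnfsf11, Tnfrsf1a, Tnfrsf12a, Tnfrsf1b and Tnfrsf18, of which Tnfsf11 and Tnfrsf18 were below background. Tnfrsf11a encodes RANK, known in the gut for the making of M cells. It was at 5.82 to 6.59 in RYGB, median 6.04, against 5.42 to 5.85 in its sham, median 5.71. The groups overlapped only between RYGB replicate 2 (5.82) and sham replicates 4 and 5 (both 5.85), and the difference was 0.42 ± 0.14 (adjusted p = 0.112). 

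Tnfsf13 encodes APRIL and Tnfsf13b encodes BAFF, survival ligands of plasma cells and B cells. Tnfsf13 was at 7.70 to 8.26 in RYGB and 7.31 to 7.74 in its sham, a difference of 0.41 ± 0.16 (adjusted p = 0.225). Tnfsf13b, read from only 1 of its 2 probe sets, was at 3.83 to 4.65 in RYGB and 3.19 to 4.29 in its sham. The Tnfsf13b difference was 0.62 ± 0.28 (adjusted p = 0.288). Of their receptors, Tnfrsf17 (BCMA, the plasma cell receptor) differed by -0.02 ± 0.24 and Tnfrsf13c (the BAFF receptor) by 0.08 ± 0.23. The 8 measured B and plasma cell markers had a median difference of -0.19, with none called. 

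Tnfrsf12a and Tnfrsf1a leaned the other way after RYGB than after VSG. Tnfrsf12a was at 5.72, 4.94, 5.54, 4.67, 5.53 and 4.58 in RYGB, against 6.16, 5.53, 5.56, 5.87 and 5.23 in RYGB sham, a difference of -0.51 ± 0.21 (adjusted p = 0.236). Tnfrsf1a was at 8.53, 8.12, 8.18, 7.94, 7.87 and 7.78 in RYGB, against 8.85, 8.53, 8.39, 8.31 and 8.20 in its sham, a difference of -0.38 ± 0.13 (adjusted p = 0.14). RYGB replicate 1 was the highest RYGB array for both genes. Without it Tnfrsf1a was at -0.48 and called (adjusted p = 0.0465). Of the 11 fits with 1 array left out, the other 10 did not call Tnfrsf1a, nor did any of 11 other alternatives. Tnfsf10 was at 4.74 to 5.92 in RYGB and 4.99 to 5.55 in RYGB sham, a difference of 0.05 with a 95% interval from -0.47 to 0.57. Tnfrsf1b, the TNF receptor 2 known from leukocytes, was at -0.33 ± 0.15 (adjusted p = 0.326).

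Of the remaining receptors above background after RYGB, Tnfrsf14 (HVEM, a receptor of epithelium and lymphocytes for LIGHT) was at 6.21 to 6.86 in RYGB and 5.99 to 6.69 in its sham (0.38 ± 0.14, adjusted p = 0.173). Ltbr, the lymphotoxin beta receptor of epithelium and stroma, was at 6.63 to 7.16 in RYGB and 6.19 to 6.87 in its sham (0.31 ± 0.12, adjusted p = 0.173). Tnfrsf21 was at -0.12 ± 0.15. Among the ligands Tnf itself, at 3.08 to 3.79 in RYGB and 3.53 to 3.96 in its sham, differed by -0.30 ± 0.17 (adjusted p = 0.464), Ltb by 0.04 ± 0.16 and Lta by 0.13 ± 0.16. Over the 22 members above background the median log2 difference was 0.02, with 11 above 0 and 11 below.

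**Figure D3:**
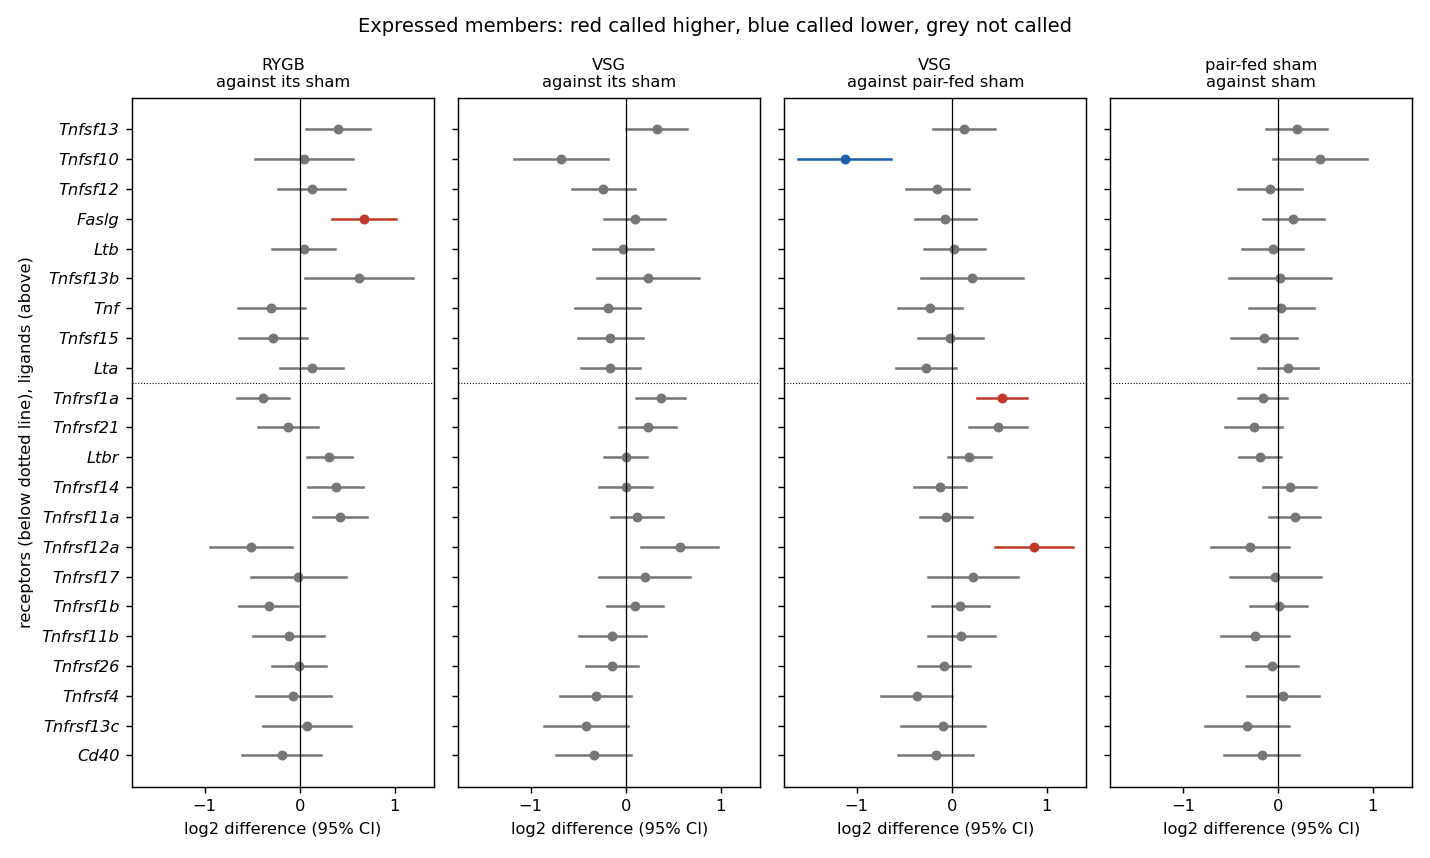
Log2 differences with 95% confidence intervals of the 22 members above background in 4 comparisons, with the first-named group minus the other. Called members are red (higher) or blue (lower): Faslg after RYGB, and Tnfsf10, Tnfrsf1a and Tnfrsf12a between VSG and pair-fed sham.

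Against VSG sham, VSG gave no called member. Of all genes 0.179% were called, 0.151% higher and 0.0275% lower, and 5 of 29 members had an unadjusted p under 0.05 (17.2%, and 8.99% of all genes): Tnfsf13, Tnfrsf1a, Tnfrsf12a and Tnfrsf18 on the higher side and Tnfsf10 on the lower. This comparison shares the VSG arrays with the one above. Tnfsf10 read 4.95, 5.38, 4.96, 5.05, 5.78 and 5.34 in VSG sham, and VSG differed from it by -0.68 ± 0.24 (adjusted p = 0.358), with a 95% interval from -1.18 to -0.19. Without the high-pancreas arrays it was 0.062, again with 1 VSG array left. Tnfrsf12a read 5.96, 5.23, 5.34, 5.69, 5.86 and 5.94 in VSG sham, all below the lowest VSG array (6.04), a difference of 0.57 ± 0.20 (adjusted p = 0.355). It was the 1 member of 29 without overlap, where 0.845% of all genes had none, and it had been named with the set. Tnfrsf1a differed by 0.37 ± 0.13 (adjusted p = 0.338), with VSG replicate 1 (8.76) below VSG sham replicate 6 (8.82).

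Pair-fed sham was compared with VSG sham to show what differed with paired feeding. Limma called no gene at all, 0% of 14557, and 0 of 29 members had an unadjusted p under 0.05, against 5.57% of all genes. All 29 members overlapped between these groups, where 0.261% of all genes did not. Tnfsf10 was at 5.33 to 6.04 in pair-fed sham and 4.95 to 5.78 in sham. Its difference of 0.44 ± 0.24 (adjusted p = 0.92) had a 95% interval from -0.05 to 0.94. Tnfrsf21 was at 6.52 to 6.78 in pair-fed sham and 6.63 to 7.13 in sham, a difference of -0.26 ± 0.15 (adjusted p = 0.921). Tnfrsf12a was at -0.30 ± 0.20 (adjusted p = 0.938), and Tnfrsf1a at -0.16 ± 0.13 (adjusted p = 0.944). For each of Tnfsf10, Tnfrsf12a and Tnfrsf1a, the means of VSG (4.56, 6.24 and 8.95) and of pair-fed sham (5.69, 5.37 and 8.42) lay on either side of that of VSG sham (5.24, 5.67 and 8.58).

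The effect of RYGB was then set against the effect of VSG, each relative to its own sham without paired feeding. No member was called in this difference, where 0.392% of all genes were called (0.0893% higher, 0.302% lower), and 6 of 29 had an unadjusted p under 0.05 (20.7%, and 8.58% of all genes). Tnfrsf1a came nearest, with an effect of RYGB lower than that of VSG by -0.75 ± 0.18 (adjusted p = 0.0642), and was called without RYGB replicate 1 (-0.84, adjusted p = 0.0141), RYGB sham replicate 5 (-0.82, adjusted p = 0.0414) or VSG sham replicate 6 (-0.80, adjusted p = 0.0493). It was also called without the lowest 33.3% of genes (-0.75, adjusted p = 0.0417), with a trended and robust prior (-0.75, adjusted p = 0.0237) and with array weights (-0.76, adjusted p = 0.0377). Tnfrsf1a was not called in 20 of 23 fits with 1 array left out, nor in 8 of the 11 other alternatives. Tnfrsf12a differed by -1.08 ± 0.29 (adjusted p = 0.109), Tnfsf10 by 0.73 ± 0.35 (adjusted p = 0.568) and Faslg by 0.58 ± 0.23 (adjusted p = 0.422). Tnfrsf18, below background in its mean, differed by -1.12 ± 0.31 (adjusted p = 0.127). The mean levels of the shams behind these effects were 5.67 in both for Tnfrsf12a. For the others they were as follows: Tnfsf10 (5.27 in RYGB sham and 5.24 in VSG sham) and Tnfrsf1a (8.45 in RYGB sham and 8.58 in VSG sham) and Faslg (3.68 in RYGB sham and 4.06 in VSG sham).

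**Figure D4:**
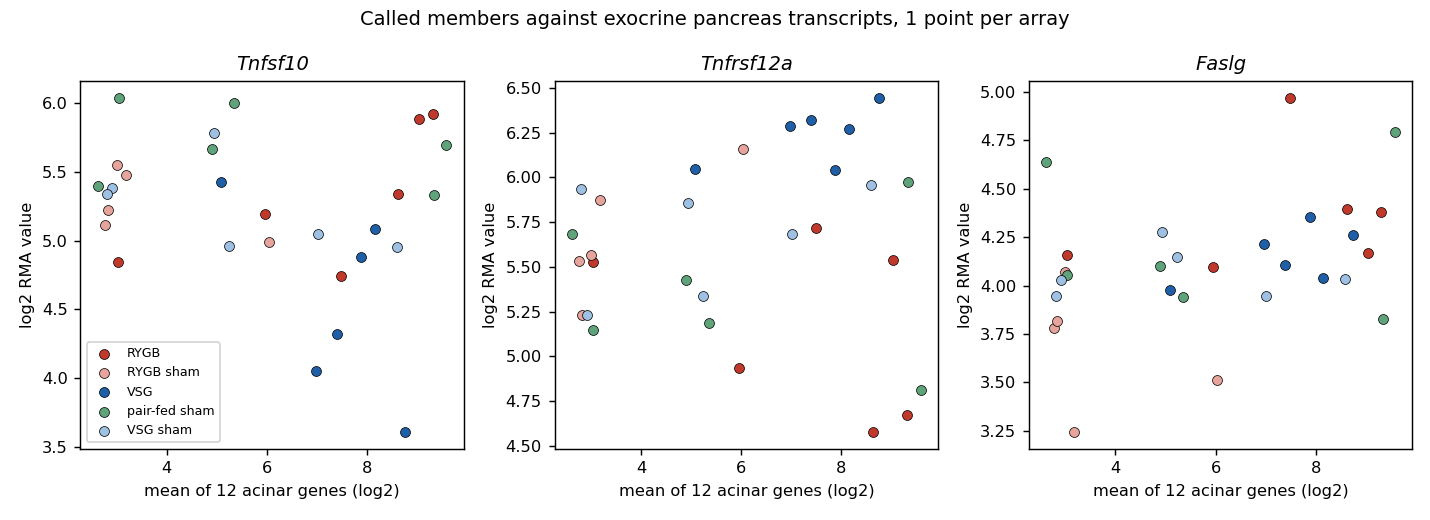
Log2 values of Tnfsf10, Tnfrsf12a and Faslg (vertical axes) against the mean log2 value of 12 acinar genes (horizontal axes), 1 point per array, coloured by group. Sham arrays span nearly the whole horizontal range, while 5 of 6 VSG and 4 of 6 RYGB arrays lie above its midpoint and none of the 5 RYGB sham arrays does.

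Ordered by mean level, Tnfsf10 stood at 5.69 ± 0.29 in pair-fed sham, 5.32 ± 0.50 in RYGB, 5.27 ± 0.24 in RYGB sham, 5.24 ± 0.32 in VSG sham and 4.56 ± 0.68 in VSG (SD, n = 6, or 5 for RYGB sham). The middle groups differed by less than their spread. Tnfrsf12a ran from 6.24 ± 0.16 in VSG through 5.67 in RYGB sham and VSG sham (SD 0.35 in RYGB sham and 0.31 in VSG sham) and 5.37 ± 0.41 in pair-fed sham to 5.16 ± 0.49 in RYGB. Tnfrsf1a ran from 8.95 ± 0.16 in VSG to 8.07 ± 0.27 in RYGB, with the 3 shams between 8.42 and 8.58. The pooled SD within groups was 0.45 for Tnfsf10 and 0.37 for Tnfrsf12a, among the larger of the 29 members, and 0.22 for Tnfrsf1a. It ran over all members from 0.18 for Ltbr to 0.49 for Tnfsf13b.

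The partners of the called members can be read beside them. Tnfsf12 encodes TWEAK, the ligand of Fn14. It was at 4.62 to 5.28 in VSG and 4.61 to 5.74 in pair-fed sham, and at 4.55 to 5.51 in RYGB and 4.95 to 5.27 in RYGB sham. It differed by -0.15 ± 0.16 between VSG and pair-fed sham (adjusted p = 0.795) and by 0.13 ± 0.17 between RYGB and its sham (adjusted p = 0.818), so neither difference of the ligand was called. Tnf, the ligand of TNF receptor 1, was at 3.03 to 3.77 in VSG and 3.04 to 3.98 in pair-fed sham, a difference of -0.23 ± 0.16 (adjusted p = 0.661). Tnfrsf11b, the soluble receptor osteoprotegerin that binds both RANKL and TRAIL, differed by 0.10 ± 0.17 between VSG and pair-fed sham (adjusted p = 0.887). Tnfrsf4 (OX40) was at -0.37 ± 0.18 there (adjusted p = 0.463), and the receptors Tnfrsf26 and Cd40 were at -0.08 ± 0.13 and -0.17 ± 0.19. Tnfsf15, the ligand TL1A of endothelium and myeloid cells, was at -0.02 ± 0.17.

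Downstream of the receptors, 37 of 54 listed signalling genes (adaptors, kinases, ubiquitin ligases and NF-kB subunits) were measured in named rows. Between VSG and pair-fed sham 1 of 37 was called, which fell (0.508% of all genes were called). None was called after RYGB (2.64% of all genes), between VSG and its sham (0.179%), between pair-fed sham and sham (0%) or in the difference of the surgeries (0.392%). At an unadjusted p under 0.05 there were 10 of 37 after RYGB (27.0%, and 14.1% of all genes), 7 between VSG and its sham (18.9%, and 8.99%) and 8 between VSG and pair-fed sham (21.6%, and 11.1%). There were 4 between pair-fed sham and sham (10.8%, and 5.57% of all genes) and 6 in the difference of the surgeries (16.2%, and 8.58%). The called gene was Tradd, the adaptor that binds the death domain of TNF receptor 1. It read 5.95, 5.93, 5.94, 5.96, 6.16 and 5.80 in VSG, against 6.61, 6.31, 6.56, 6.22, 6.46 and 6.24 in pair-fed sham, all VSG arrays lower. Tradd fell by 0.44 ± 0.10 on the log2 scale (adjusted p = 0.0329), opposite in direction to its receptor.

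Tradd averaged 6.40 ± 0.16 in pair-fed sham and 6.06 ± 0.18 in VSG sham (SD, n = 6 each), a difference of 0.34 ± 0.10 (adjusted p = 0.537), and VSG differed from VSG sham by -0.10 ± 0.10 (adjusted p = 0.83). It was not called between VSG and pair-fed sham without VSG replicate 1, 2, 3 or 6 or pair-fed replicate 1, 3 or 5 (-0.40 to -0.44, adjusted p from 0.055 to 0.0914), with these groups alone (adjusted p = 0.109), over all rows (adjusted p = 0.0636), with centred arrays (-0.43, adjusted p = 0.0661) or with the acinar covariate (-0.44, adjusted p = 0.0539). After RYGB, Nfkbia, the NF-kB inhibitor and a target of NF-kB, came nearest at -0.45 ± 0.13 (adjusted p = 0.055), followed by the kinase Tbk1 (-0.34 ± 0.10, adjusted p = 0.0752) and Relb, a subunit of the pathway downstream of the lymphotoxin beta receptor (0.49 ± 0.16, adjusted p = 0.0954). These 3 genes were chosen after their values were seen.

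**Figure D5:**
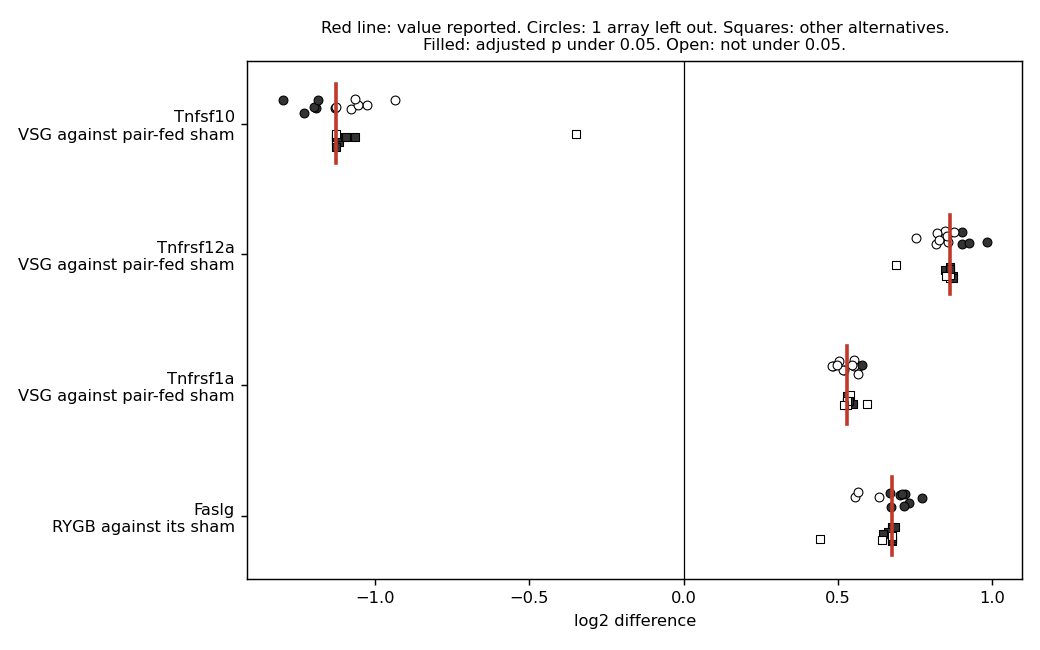
Log2 differences of the 4 called members under the fit reported (red line), with 1 array left out (circles) and under the other alternatives (squares), filled where the adjusted p stayed under 0.05. Directions stay on the same side of 0 throughout, while many symbols are open.

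Between VSG and pair-fed sham the 7 mast cell markers, Tpsab1 among them below background, were all above 0 with a median of 0.27. Their mean per array ran from 4.25 to 4.92 in VSG and from 3.84 to 4.40 in pair-fed sham. The 12 macrophage and dendritic cell markers had a median of 0.01, the 17 T and natural killer cell markers -0.00, the 8 fibroblast markers 0.09 and the 9 interferon-response genes -0.14, with none called in these lists. The 8 B and plasma cell markers had a median of 0.07, with 7 above 0, and the 9 enterocyte markers 0.05, with 7 above 0. Medians were -0.11 for lymphoid follicle, -0.02 for endothelium and 0.07 for smooth muscle markers, again with none called. Single markers reached -1.14 in the follicle list and -0.82 in the enterocyte list. The acinar genes had a median of 1.60, with 12 of 12 above 0 and none called. After RYGB the acinar genes had a median of 3.73, with 12 of 12 above 0, 12 of 12 at an unadjusted p under 0.05 and none called. The fibroblast markers there had a median of -0.42, with 8 of 8 below 0 and 1 of 8 called lower. The macrophage and dendritic cell markers had a median of -0.25, with 9 of 12 below 0 and none called. Of all genes 2.64% were called after RYGB, 1.26% higher and 1.38% lower. The 9 interferon-response genes, Usp18 among them below background, averaged 4.23 to 4.67 per array in RYGB and 4.70 to 4.93 in its sham. Of these 9 genes 2 were called lower. The interferon-response differences ran from -1.65 to 0.40 with a median of -0.16, and 3 of the 9 were above 0. The 9 enterocyte markers had a median of 0.02 after RYGB, with 1 called higher. In VSG against VSG sham the enterocyte differences ran from -1.23 to 0.04, with none called. Apart from the acinar genes, the part of these lists in the members' differences was not tested.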

How the data were processed

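Duodenal RNA was hybridised to 1 array per rat. The deposited log2 values, 1 per probe set and array, were made by the authors with RMA in Affymetrix Expression Console 1.3.0.187, per the submitters' processing notes. For the chip definition, genome build and filters, nothing is stated in the labels or header. Array medians lay between 2.80 and 2.97. Arrays give no read depth, so their number limits the precision.

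Of 36685 rows 14824 had 1 symbol in the platform annotation, 829 had several and were not used, and 21032 were unnamed here. Symbols were updated through Entrez numbers (GRCr8 table), giving 14557 genes. One model of 5 group means was fitted to all genes and 29 arrays (limma 3.58.1, R 4.3.3), without an intensity filter, with two-sided p-values adjusted by Benjamini-Hochberg over all genes, and was tested on simulated data. Samples of a group are biological replicates per the labels. The members, gene lists and motifs were chosen with earlier results of these data known. Values per array or the range of a group were given for Tnfsf10, Tnfrsf12a, called members, the 3 ligands and 5 receptors with the highest mean and, in each comparison, the 2 members above background with the smallest p-values, 10 members in all. Ranges were also given for Tnf and Tnfsf13b, which fell outside this rule and were not followed singly through the alternatives. Per-array lists were kept to the called members and Tradd. Arrays were counted as high in pancreas transcripts above the midpoint of the range, 6.10. Same-numbered arrays did not deviate together, so the numbers were not taken as pairs.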

Additional observations from a re-analysis of the deposited data

Results flagged for a closer look

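Of 50 sets of arrays, 10 members in 5 groups, 4 held an array that stood apart by Dixon's test, and chance alone sets apart about 1 in 20. Faslg was highest in RYGB replicate 1 (4.970, next 4.397), 1 of 3 arrays without which its call ended. Tnfsf12 was lowest in the same array (4.552, next 5.199). Tnfrsf21 was lowest in RYGB replicate 4 (5.763, next 6.604), and its RYGB difference was 0.05 without that array, against -0.12 with it. Tnfrsf21 was also lowest in pair-fed sham replicate 6 (6.517, next 6.700).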

How the results depend on the processing

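Of the members called after RYGB, 0 were left with only the groups compared, with the pancreas covariate or with the high-pancreas arrays dropped, and 0 to 1 with 1 array left out. Between VSG and pair-fed sham the 3 called members became 0 over all rows or with only the groups compared, 1 with the pancreas covariate, and 0 to 3 with 1 array left out. Without the high-pancreas arrays 1 VSG array was left, so no count is given for that comparison. In the RYGB effect minus the VSG effect, 1 member (Tnfrsf1a) was called without the lowest 33.3% of genes, with a trended and robust prior or with array weights, and 0 to 1 with 1 array left out. Signalling genes called after RYGB were 2 without the lowest genes or with the trended prior, 1 with array weights, and 0 to 1 with 1 array left out. Between VSG and pair-fed sham they were 0 over all rows, with centred arrays, with only the groups compared, with the replicate block or with the pancreas covariate, and 0 to 1 with 1 array left out. These alternatives for the signalling genes were chosen after seeing the data. The share of all genes called under each alternative is not given here, so these counts are not read as results about the lists. With the 99th percentile of the olfactory and vomeronasal receptor genes (3.18) as threshold 18 members were expressed. With the median of all genes, which by definition splits all genes evenly, 14 of 29 were. The replicate number as a block also ended the Tnfrsf1a call (0.53, adjusted p = 0.0686), and same-numbered arrays shared a number only, with 1 of 6 pairs above a correlation of 0.1 in that comparison.

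Differences that changed sign were uncalled before and after. Without the high-pancreas arrays, VSG against its sham gave -0.12 for Faslg, 0.066 for Ltbr, 0.086 for Tnfrsf14, 0.062 for Tnfsf10 and 0.057 for Tnfsf12. VSG against pair-fed sham gave 0.073 for Tnfrsf11a and 0.023 for Tnfsf12, and pair-fed sham against sham 0.034 for Tnfsf12. RYGB against its sham gave 0.052 for Tnfrsf21 and -0.25 for Tnfsf10, and the difference of effects -0.31 for Tnfsf10, -0.20 for Tnfsf13 and -0.23 for Tnfrsf11a. Centring the arrays gave 0.022 for Ltbr and 0.023 for Tnfrsf14 in VSG against its sham. With 1 array left out, VSG against its sham ran from -0.037 to 0.031 for Ltbr and from -0.092 to 0.049 for Tnfrsf14. Faslg ran from -0.15 to 0.047 in VSG against pair-fed sham and Tnfsf12 from -0.19 to 0.041 in pair-fed sham against sham. After RYGB, Tnfsf10 ran from -0.071 to 0.17 and Tnfrsf21 from -0.19 to 0.052, and Tnfsf13 from -0.026 to 0.18 in the difference of effects. The cause was not tested.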

Other observations

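Several members are neighbours among protein-coding genes in the RefSeq order (GRCr8). Tnfsf13 and Tnfsf12 adjoin on chromosome 10, Tnfsf4, Tnfsf18 and Faslg on chromosome 13, Lta, Tnf and Ltb on chromosome 20, and on chromosome 5 Tnfrsf1b adjoins Tnfrsf8 and Tnfrsf4 adjoins Tnfrsf18. In RYGB against its sham, Faslg differed by 0.68, its neighbour Tnfsf18 by 0.32 and Tnfsf4 by 0.21, of which only Faslg was called and above background. Lta, Tnf and Ltb differed by 0.13, -0.30 and 0.04, and Tnfsf13 and Tnfsf12 by 0.41 and 0.13. Tnfrsf1b and Tnfrsf8 were at -0.33 and -0.19, Tnfrsf4 and Tnfrsf18 at -0.07 and -0.65, none of them called.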
